A study of Mus musculus with 13 samples.

Results

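The oxysterol receptors, their targets and the genes of cholesterol efflux were read as 10 genes, chosen by name: the receptors Nr1h2 and Nr1h3, the transporters Abca1 and Abcg1, the lipoprotein genes Apoe and Pltp, and the targets Mylip, Srebf1, Scd2 and Lpcat3. All 10 were among the 14078 genes whose transcripts were listed for every group. The RNA was adrenal, from C57BL/6 mice given TAM (the inducing agent, as the labels spell it) to knock out Star, whose product carries cholesterol into mitochondria for steroid synthesis. There were 5 libraries from before TAM, 4 from 24 h after it and 4 from 8 weeks after it. All 3 groups share the strain and the tissue, and the labels give no driver of the deletion, no age and no group that had TAM with Star intact. TAM, time and the loss of Star therefore cannot be told apart. Whether the libraries are different animals is not stated in the labels, and the p-values reflect only how much these libraries vary, part of which may be technical.

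Oxysterols are oxidised forms of cholesterol that accumulate when a cell holds more sterol than it can store or use. They bind the liver X receptors, LXR-alpha (Nr1h3) and LXR-beta (Nr1h2), which sit on DNA with a retinoid X receptor and switch on genes that export cholesterol, lower its uptake and remodel membrane lipids. Steroid-making cells of the adrenal cortex and lipid-laden macrophages are both known to use this pathway.

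Libraries held 17331673 to 27309429 listed reads. Star stood at 3206.6 to 4238.7 FPKM (fragments scaled to transcript length and sequencing depth) before TAM, 17.41 to 626.1 at 24 h and 85.85 to 201.6 at 8 weeks, and its log2 fold change was −3.39 at 24 h (SE 0.74, edgeR adjusted p = 0.0069) and −4.56 at 8 weeks (SE 0.78, adjusted p = 0.00076). Replicate 3 at 24 h stood apart: its markers of steroid-making cortex, medulla and fat cells averaged −5.71, −6.95 and −6.23 log2 relative to before. These means do not bear out its label as a whole adrenal gland, but its cortex markers were split. Their sum was still 4265.0 FPKM, against 18460.9 to 29062.4 before. Over all 24 h libraries, the lowest values were 1.071 FPKM for Cyp11b1 and 2.421 for Cyp21a1, but 983 for Cyp11a1 and 1066.9 for Hsd3b1. These are minima of the group and need not all come from replicate 3. Medulla markers were also low, at −5.05, in 24 h replicate 4, and fat-cell markers, at −4.15, in before replicate 1. Results at 24 h include replicate 3 unless stated otherwise. Values of marker lists and of single pathway genes are given only with it. The shares of all genes called were 12.6% higher and 6.63% lower at 24 h, and 20.5% higher and 16.4% lower at 8 weeks. Of 12 macrophage markers, 10 rose at 24 h and 12 at 8 weeks, and none was at 0 in any library. Their summed level ran from 412.7 to 1114.6 FPKM before, 2383.3 to 4193.4 at 24 h and 5234.1 to 10129.7 at 8 weeks. That sum leans on the markers of highest FPKM, such as Lyz2 (mean 1495.7 at 24 h and 4505.6 at 8 weeks). From 24 h to 8 weeks 2 of the 12 rose, 1 fell and 9 were not called, with a median log2 fold change of 0.04. Of all genes 10.1% rose and 10.6% fell between those times. All 5 fibroblast and capsule markers rose at both times. Of 8 markers of steroid-making cortex, 2 fell at 24 h and 5 at 8 weeks. In bulk RNA, a change in the number of cells of a type and a change in RNA per cell cannot be told apart, and the part of these markers in the results that follow was not tested.

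**Figure D1:**
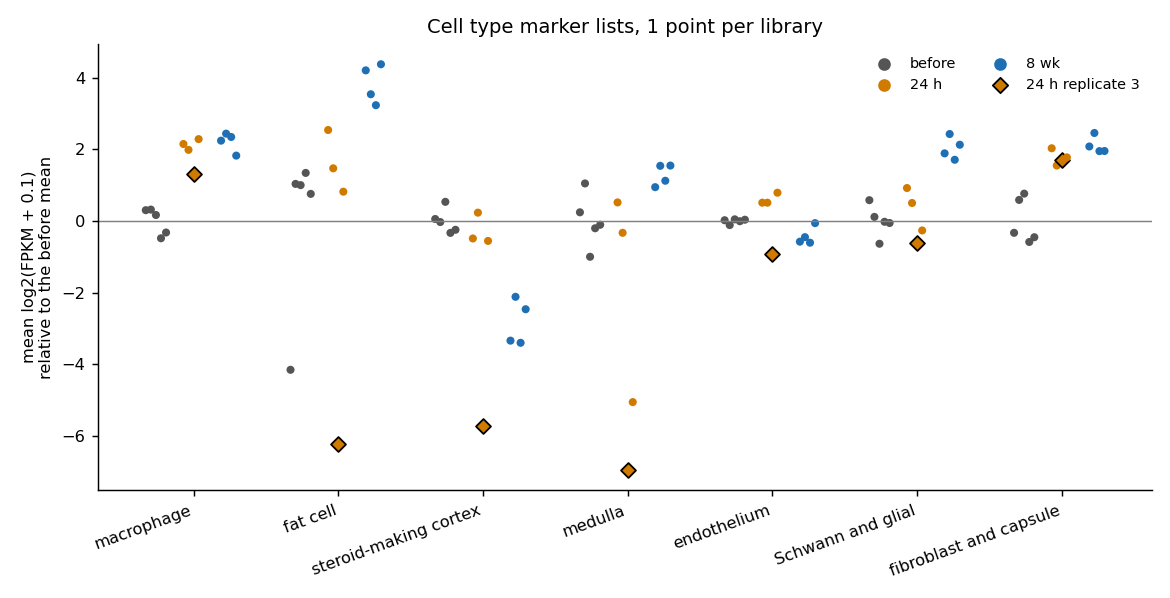
Cell type marker lists in every library. Each point is 1 library, and the vertical axis is the mean over the list of log2(FPKM + 0.1) minus the mean of the before libraries; 24 h replicate 3 is drawn as a diamond, with cortex at −5.71, medulla at −6.95 and fat cells at −6.23, while macrophage markers stand above 1 in every later library.

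The promoters are shown because the receptors act through a DNA element that can be searched for in them. RefSeq windows on GRCm38.p6, from 250 bases before to 50 after an annotated start, matched 8 of the 10 genes with 13 windows (Abca1, Apoe, Lpcat3, Mylip, Nr1h2, Nr1h3, Pltp and Srebf1). The element searched on both strands was the direct repeat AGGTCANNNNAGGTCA, allowing 3 mismatches over its 12 fixed letters. It was present in 2 of the 13 windows and in 21.9% of all 32851 promoter windows. No window of these genes held it with 2 mismatches or fewer, which 3.02% of all windows did. Both matches are on the strand opposite to the gene, and they are printed in capitals below. The Abca1 window (chr4:53159846-53160145, minus strand) holds its match at positions −67 to −52 from the start of the listed transcript, and at −147 to −142 an E-box, CACGTG, a motif in 7.15% of all windows. The Srebf1 window (chr11:60210422-60210721, minus strand) precedes an inner start of the gene and holds its match at −182 to −167. The Mylip window (chr13:45389492-45389791, plus strand) is set beside them as that of the gene with the smallest errors, and it has no match.
Abca1: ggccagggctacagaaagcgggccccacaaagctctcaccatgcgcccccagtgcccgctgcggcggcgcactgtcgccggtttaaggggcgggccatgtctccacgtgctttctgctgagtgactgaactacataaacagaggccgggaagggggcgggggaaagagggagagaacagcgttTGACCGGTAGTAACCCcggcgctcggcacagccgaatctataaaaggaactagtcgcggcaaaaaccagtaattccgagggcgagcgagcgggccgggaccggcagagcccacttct
Srebf1, inner start: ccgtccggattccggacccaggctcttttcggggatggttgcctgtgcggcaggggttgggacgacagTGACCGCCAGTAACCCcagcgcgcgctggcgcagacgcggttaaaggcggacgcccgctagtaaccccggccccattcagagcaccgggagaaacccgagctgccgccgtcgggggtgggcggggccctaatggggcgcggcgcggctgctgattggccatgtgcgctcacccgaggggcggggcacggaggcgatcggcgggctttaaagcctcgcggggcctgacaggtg
Mylip: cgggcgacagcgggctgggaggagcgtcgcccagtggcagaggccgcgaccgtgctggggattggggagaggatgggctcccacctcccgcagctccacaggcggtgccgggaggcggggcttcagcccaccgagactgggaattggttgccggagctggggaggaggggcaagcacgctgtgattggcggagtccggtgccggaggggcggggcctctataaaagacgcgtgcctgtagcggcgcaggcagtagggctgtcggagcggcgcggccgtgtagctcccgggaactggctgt

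The tables list 1 Srebf1 model, whose first base lies 10133 bases upstream of that inner start and 23 bases from another annotated start. In mouse and human the inner start gives SREBP-1c, the form driven by LXR, and an outer one gives SREBP-1a. The deposited Srebf1 value therefore does not separate the forms, and how much of it comes from either one was not tested.

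By 24 h, 5 of the 10 genes had risen and 0 had fallen (edgeR adjusted p under 0.05), where 12.6% of all genes rose and 6.63% fell. They were Abcg1, Mylip, Pltp, Apoe and Nr1h3, with rises from 1.90-fold to 6.91-fold. Without 24 h replicate 3 these 5 were also called, where 2341 of all 14078 genes rose. Their log2 rises were then 3.01 for Abcg1, 2.43 for Pltp, 1.87 for Apoe, 1.70 for Mylip and 1.2 for Nr1h3 (edgeR adjusted p of 0.0028 or less). At 8 weeks the same 5 were higher than before and Scd2 had fallen, against 20.5% of all genes higher and 16.4% lower, 36.9% in either direction. The median log2 fold change of the 10 genes was 0.69 at 24 h and 0.76 at 8 weeks, and over all genes it was 0.03 at both times. Both comparisons use the same before libraries, so their likeness is not independent. The fate between the times differed: from 24 h to 8 weeks Nr1h3 rose further, Abca1, Mylip and Scd2 fell, and the other 6 were not called, where 10.1% of all genes rose and 10.6% fell, 20.8% in either direction. FPKM as deposited are scaled to sequencing depth but carry no TMM scaling, which the log2 fold changes do, so the scales can differ for small changes.

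**Figure D2:**
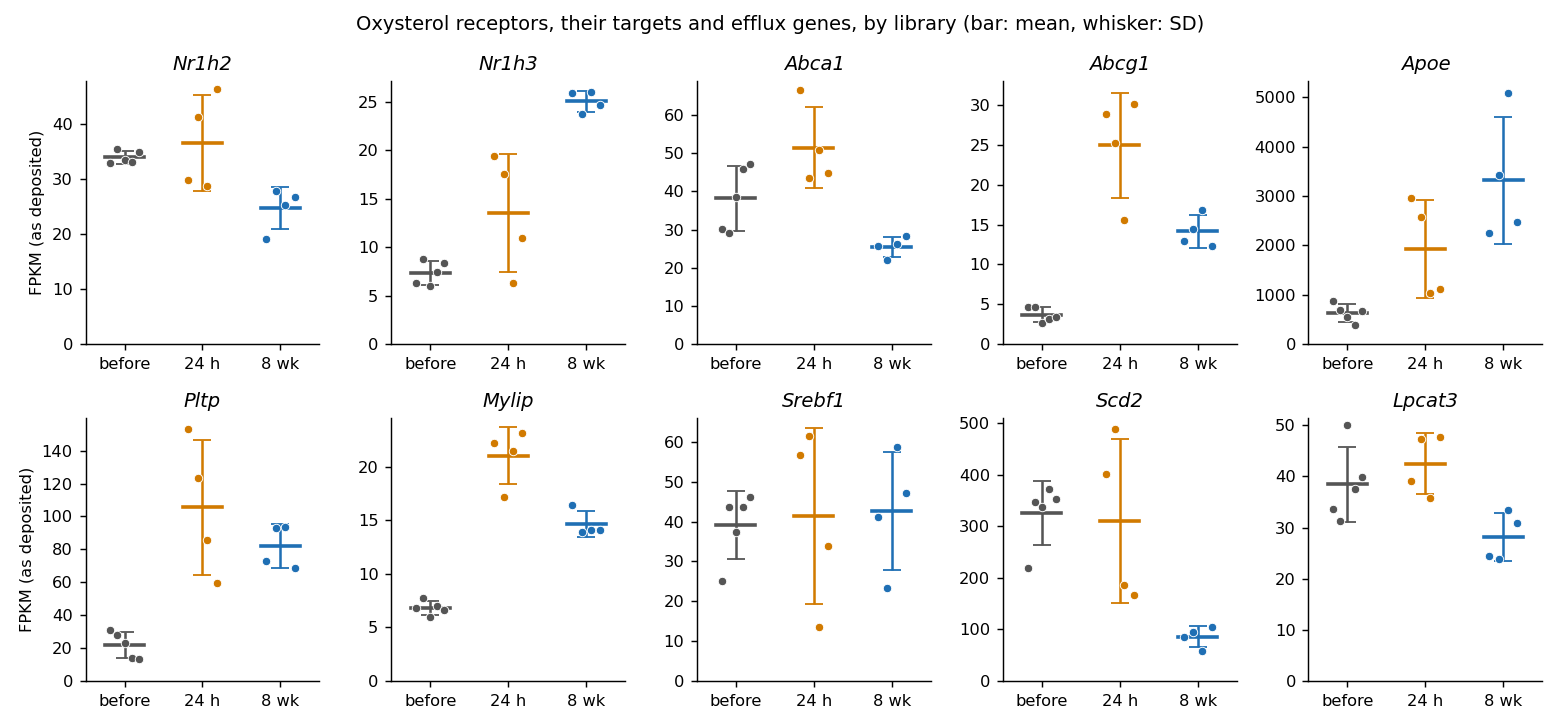
FPKM of the 10 genes in every library, 1 panel per gene with its own axis starting at 0. Each point is 1 library (5 before, 4 at 24 h, 4 at 8 weeks), the bar is the mean and the whisker the SD. The means of Abcg1 and Mylip are highest at 24 h, while Nr1h3 is highest at 8 weeks (23.76 to 26.01 FPKM). For Abcg1 the 24 h and 8-week libraries overlap, and the step between them was not called (edgeR adjusted p = 0.058).

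**Figure D3:**
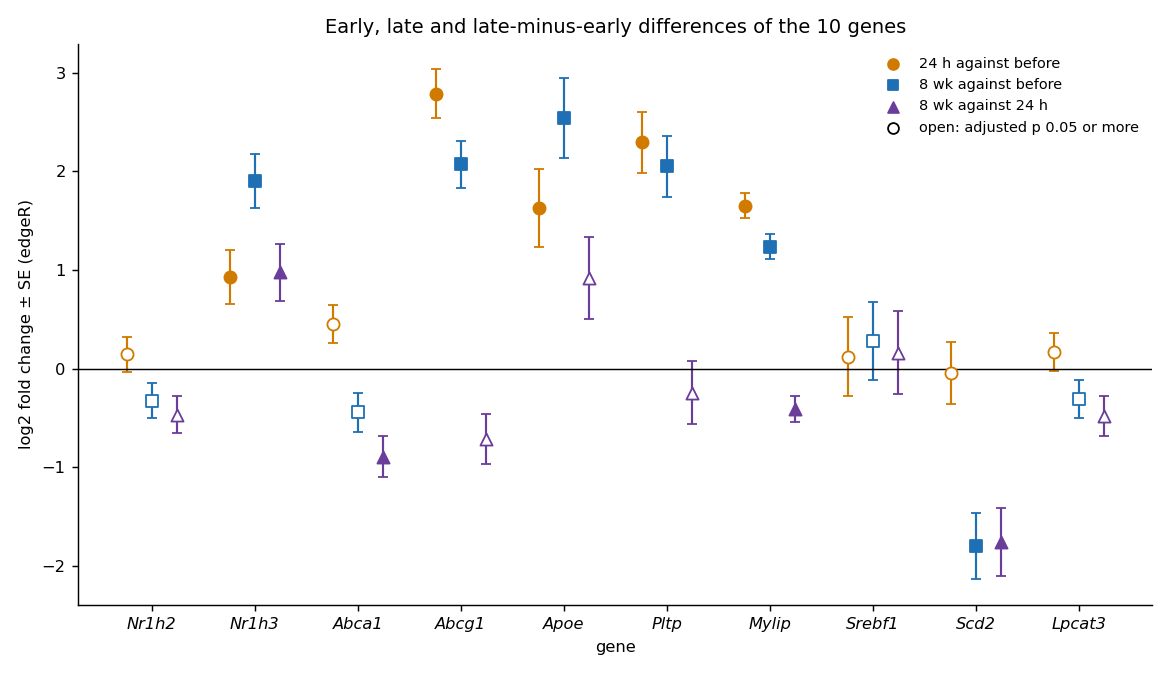
Log2 fold changes of the 10 genes from edgeR with their SE, for 24 h against before, 8 weeks against before and 8 weeks against 24 h. Filled symbols have an adjusted p under 0.05; Abcg1 stands highest at 24 h (2.79) and Apoe at 8 weeks (2.54), while Scd2 is the filled symbol below 0 at 8 weeks (−1.80).

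Of the receptors, Nr1h3 rose at both times and Nr1h2 was not called. Nr1h3 (chromosome 2, 91184061 to 91195116 of mm10, minus strand), which encodes LXR-alpha and is rich in liver, fat and macrophages, stood at 6.294, 8.79, 6.019, 7.4 and 8.413 FPKM in the before libraries. It stood at 19.43, 17.58, 6.274 and 10.98 FPKM in 24 h replicates 1 to 4, and at 25.88, 23.76, 26.01 and 24.65 FPKM at 8 weeks. Every 8-week library lay above all others, while 24 h replicate 3 lay within the before range.

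The log2 fold change of Nr1h3 was 0.93 at 24 h (SE 0.27, edgeR adjusted p = 0.031), 1.91 at 8 weeks (SE 0.28, adjusted p = 0.00022) and 0.98 from 24 h to 8 weeks (SE 0.29, adjusted p = 0.033). The early rise was 1.2 without 24 h replicate 3 (adjusted p = 0.00038). It was not called in a fit of the 2 groups alone (adjusted p = 0.081), in limma on log2 FPKM (adjusted p = 0.066 and 0.067), or without before replicate 1, 3, 4 or 5 or 24 h replicate 1 or 2 (adjusted p from 0.053 to 0.094). The further rise after 24 h was not called without before replicate 2, 4 or 5, without 24 h replicate 4 or without any 1 of the 8-week libraries (adjusted p from 0.051 to 0.082), and in a fit of the 2 groups alone its adjusted p was 0.11.

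Nr1h2 (chromosome 7, 44549616 to 44553965, minus strand) encodes LXR-beta, which most tissues carry. Its level was 32.83 to 35.49 FPKM before, 29.81, 41.32, 28.66 and 46.41 FPKM at 24 h, and 19.09, 27.78, 25.26 and 26.75 FPKM at 8 weeks. Every 8-week library lay below every earlier one in FPKM. On the scaled counts its log2 fold change was −0.32 (SE 0.18, edgeR adjusted p = 0.17) at 8 weeks and −0.47 (SE 0.19, adjusted p = 0.090) from 24 h to 8 weeks. The 8-week value was called in a fit of the 2 groups alone (−0.36, adjusted p = 0.026) and without a scaling factor (−0.45, adjusted p = 0.032). It was also called in limma on log2 FPKM (adjusted p = 0.032 and 0.030) and in limma voom with quality weights (adjusted p = 0.042). The authors' deposited ratios for 8 weeks against before are per model, −0.63 for the leading one (q-value 0.036), with q-values of 0.13 to 0.988 for the others. The step after 24 h was called without 24 h replicate 3 (−0.65, adjusted p = 0.016).

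The ratio of Nr1h3 to Nr1h2 within a library does not depend on scaling. In FPKM it was 0.1917, 0.2477, 0.18, 0.2232 and 0.2412 before, 0.6519, 0.4255, 0.2189 and 0.2367 at 24 h, and 1.356, 0.8552, 1.03 and 0.9216 at 8 weeks. At 8 weeks the receptors thus stood at about the same level, and before TAM Nr1h3 stood well below Nr1h2 in every library. At 8 weeks the ratio was 4.76-fold that before (two-sided exact permutation test, p = 0.016, adjusted p = 0.043 over 3 comparisons) and 2.96-fold that at 24 h (exact permutation p = 0.029, adjusted p = 0.043). At 24 h it was 1.61-fold that before (exact permutation p = 0.14), with replicates 1 and 2 above the before range and replicates 3 and 4 inside it. With 1 library left out, the adjusted p of the 8-week differences ran from 0.043 to 0.086. The smallest p these designs allow is 0.016 for 5 against 4 libraries and 0.029 for 4 against 4. It is larger still with fewer libraries, so the adjusted p rises with 1 left out even where the groups stay apart. That range therefore does not measure how firm the ratios are.

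Both receptor genes had more than 1 transcript model. The leading model of Nr1h3 held 87.1% ± 7.87 (SD, n = 5) of its FPKM before, 75.4% ± 7.51 (n = 4) at 24 h and 87.0% ± 3.98 (n = 4) at 8 weeks. The leading model of Nr1h2 held 53.7% ± 6.76, 40.2% ± 6.41 and 48.1% ± 5.71 in the same order. The shares overlapped between groups, and no difference in either gene passed the two-sided exact permutation test after adjustment over 6 tests (adjusted p from 0.16 to 0.89). How reads that fit several models are divided among them is an estimate made upstream.

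The transporters took different courses. Abcg1 (chromosome 17, 31057694 to 31117981, plus strand), which exports cholesterol to mature high-density lipoprotein, stood at 4.634, 4.73, 2.689, 3.141 and 3.426 FPKM before. It reached 28.93, 25.26, 15.58 and 30.12 FPKM at 24 h and stood at 12.93, 14.51, 16.89 and 12.28 FPKM at 8 weeks. All 24 h and 8-week libraries lay above all before libraries, and the lowest 24 h library was replicate 3.

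Abcg1 rose 6.91-fold at 24 h (2.79 log2, SE 0.25, edgeR adjusted p = 9.2e-05) and 4.21-fold at 8 weeks (2.07 log2, SE 0.24, adjusted p = 4.6e-05). The step from 24 h to 8 weeks was −0.72 log2 (SE 0.25, adjusted p = 0.058). It was called when 24 h replicate 3 (−0.96, adjusted p = 0.0058) or 8-week replicate 3 (−0.87, adjusted p = 0.044) was left out. DESeq2 (−0.73, adjusted p = 0.028) and the fit without a scaling factor (−0.79, adjusted p = 0.027) called it too.

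Abca1 (chromosome 4, 53030789 to 53159895, minus strand), which loads cholesterol onto lipid-poor apolipoprotein A-I and whose window with a 3-mismatch match is printed above, was called against before at neither time. It stood at 30.19, 29.12, 38.43, 45.93 and 47.17 FPKM before, 66.6, 43.49, 50.75 and 44.69 FPKM at 24 h, and 25.67, 21.95, 26.1 and 28.27 FPKM at 8 weeks. The 24 h and before libraries overlapped, and every 8-week library lay below every earlier one.

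Against before, the log2 fold change of Abca1 was 0.45 at 24 h (SE 0.19, edgeR adjusted p = 0.13) and −0.44 at 8 weeks (SE 0.20, adjusted p = 0.094). From 24 h to 8 weeks it fell by 0.89 log2 (SE 0.21, adjusted p = 0.014), and that fall was called when any 1 library was left out. The late difference from before was called without a scaling factor (−0.57, adjusted p = 0.033) and without before replicate 2 (−0.57, adjusted p = 0.049). It was also called with all transcripts of the 2 groups (adjusted p = 0.041), in limma on log2 FPKM (adjusted p = 0.025 and 0.024) and in limma voom with quality weights (adjusted p = 0.013). The authors' deposited table gives Abca1 a log2 ratio of −0.56 with a q-value of 0.046 for 8 weeks against before.

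Within a library the ratio of Abcg1 to Abca1 FPKM was 0.06839 to 0.1624 before, 0.3069 to 0.6741 at 24 h and 0.4343 to 0.6612 at 8 weeks. Both later groups lay wholly above the before libraries and overlapped each other. The ratio was 4.92-fold that before at 24 h and 5.69-fold at 8 weeks (two-sided exact permutation test, p = 0.016 for both, adjusted p = 0.024 over 3 comparisons). With 1 library left out, the adjusted p of both differences ran from 0.043 to 0.054, a rise that smaller groups bring even where they stay apart. Between the later times it differed 1.16-fold (exact permutation p = 0.54).

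**Figure D4:**
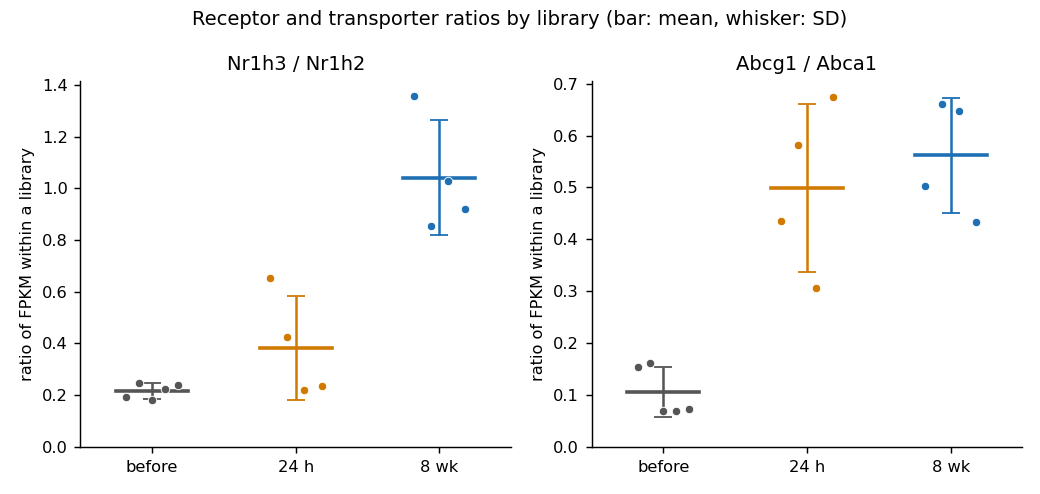
Ratios of FPKM within each library, Nr1h3 to Nr1h2 on the left and Abcg1 to Abca1 on the right. Each point is 1 library, the bar is the mean and the whisker the SD; the receptor ratio reaches 0.8552 to 1.356 at 8 weeks, and the transporter ratio is already at 0.3069 to 0.6741 at 24 h.

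Apoe and Pltp encode proteins that carry and exchange lipid outside the cell. Apoe (chromosome 7, 19696244 to 19699166, minus strand), an apolipoprotein made in liver, macrophages and steroid-making cells, stood at 871.3, 692.3, 544.3, 398.8 and 668.2 FPKM before. It stood at 2966.2, 2567.3, 1029.8 and 1122.6 FPKM at 24 h and at 2259.1, 3435.1, 5095.4 and 2474.8 FPKM at 8 weeks. No later library overlapped the before libraries, and 24 h replicates 3 and 4 were lowest among the later ones.

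Apoe rose 3.09-fold at 24 h (1.63 log2, SE 0.39, edgeR adjusted p = 0.012) and 5.83-fold at 8 weeks (2.54 log2, SE 0.40, adjusted p = 0.00043). The step from 24 h to 8 weeks was 0.92 (SE 0.42, adjusted p = 0.13) and was not called. Without 24 h replicates 3 and 4, a setting chosen after seeing the data, the early rise was 2.171 (adjusted p = 0.0017) and the later step 0.35 (adjusted p = 0.54).

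Pltp (chromosome 2, 164839518 to 164857708, minus strand), the phospholipid transfer protein that remodels high-density lipoprotein, stood at 30.65, 27.96, 23.04, 14.05 and 13.26 FPKM before, 153, 123.6, 85.94 and 59.79 FPKM at 24 h, and 72.6, 93.25, 93.47 and 68.48 FPKM at 8 weeks. All 24 h and 8-week libraries were above all before libraries. It rose 4.91-fold at 24 h (SE 0.31 log2, edgeR adjusted p = 0.00040) and 4.14-fold at 8 weeks (2.05 log2, SE 0.31, adjusted p = 0.00028), and the difference between those times was −0.24 (SE 0.32, adjusted p = 0.60).

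Mylip (chromosome 13, 45389742 to 45411940, plus strand) encodes the ubiquitin ligase, also named IDOL, that sends the LDL receptor for degradation. It stood at 6.798, 7.78, 5.972, 6.944 and 6.601 FPKM before, 22.21, 17.13, 21.5 and 23.17 FPKM at 24 h, and 16.43, 13.85, 14.11 and 14.05 FPKM at 8 weeks. The 3 groups did not overlap, with 24 h highest, and 24 h replicate 3 stood among its group.

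Mylip rose 3.14-fold at 24 h (1.65 log2, SE 0.13, edgeR adjusted p = 7.8e-05) and 2.36-fold at 8 weeks (1.24 log2, SE 0.13, adjusted p = 2.1e-05). It fell by 0.41 log2 (SE 0.13, adjusted p = 0.044) between them. That fall was not called without before replicate 1, 24 h replicate 1 or 4, or any 1 of the 8-week libraries (adjusted p from 0.054 to 0.11), and in a fit of the 2 groups alone its adjusted p was 0.098.

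Among the 10 genes, Srebf1, Scd2 and Lpcat3 act in lipid synthesis and remodelling, and none of these 3 was called higher at either time. Srebf1 (chromosome 11, 60199089 to 60220604, minus strand), the gene of SREBP-1 forms that drive fatty acid synthesis, stood at 25.05 to 46.13 FPKM before, 56.73, 61.6, 13.6 and 33.79 FPKM at 24 h, and 41.14, 23.28, 58.71 and 47.19 FPKM at 8 weeks. The 3 groups overlapped throughout, and the lowest library of all was 24 h replicate 3. Its log2 fold change was 0.12 at 24 h (SE 0.40, edgeR adjusted p = 0.87) and 0.28 at 8 weeks (SE 0.40, adjusted p = 0.61), and its sign at 24 h changed with before replicate 1 or 24 h replicate 1 or 2 left out (from −0.13 to 0.44 over all single libraries left out).

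Scd2 (chromosome 19, 44293676 to 44306862, plus strand), a stearoyl-CoA desaturase that makes monounsaturated fatty acids, stood at 218.2, 347.8, 337.7, 372.7 and 352.7 FPKM before. It stood at 400.7, 489.3, 185.5 and 166.2 FPKM at 24 h and at 85.93, 95.52, 58.56 and 103.9 FPKM at 8 weeks. At 24 h replicates 1 and 2 lay above the before range and replicates 3 and 4 below it, while at 8 weeks every library lay below every earlier one.

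Scd2 fell by 1.80 log2 at 8 weeks (SE 0.34, edgeR adjusted p = 0.0013) and by 1.76 from 24 h to 8 weeks (SE 0.35, adjusted p = 0.0073). The markers of steroid-making cortex summed to 18460.9 to 29062.4 FPKM before, 4265.0 to 24840.6 at 24 h and 1669.5 to 4298.7 at 8 weeks, and their part in the fall of Scd2 was not tested. At 24 h its log2 fold change was −0.04 (SE 0.32, adjusted p = 0.94), or 0.17 (adjusted p = 0.70) without 24 h replicate 3.

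Lpcat3 (chromosome 6, 124663104 to 124704716, plus strand), which puts polyunsaturated chains into membrane phospholipids, stood at 31.25 to 50.15 FPKM before, 35.81 to 47.81 at 24 h and 23.9 to 33.47 at 8 weeks. The before libraries overlapped both later groups, and the 8-week libraries lay below the 24 h ones. No log2 fold change was called, at 0.17 (SE 0.19, edgeR adjusted p = 0.59), −0.31 (SE 0.20, adjusted p = 0.23) and −0.48 (SE 0.205, adjusted p = 0.11) for 24 h, 8 weeks and the step between them. The last was called without 24 h replicate 3 (−0.64, adjusted p = 0.039), and the 8-week value without a scaling factor (−0.44, adjusted p = 0.050). Both were also called in limma on log2 FPKM (adjusted p from 0.023 to 0.045).

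Across the 10 genes in FPKM, which is per transcript length, Apoe was first and Scd2 second in each group. Before TAM, Apoe averaged 635.0 ± 176.2 and Scd2 325.8 ± 61.5 FPKM (SD, n = 5). Srebf1, Lpcat3, Abca1 and Nr1h2 followed at 39.19, 38.49, 38.17 and 33.96 FPKM, each overlapping its neighbour in that order, then Pltp, Nr1h3 and Mylip, and Abcg1 came last at 3.72 ± 0.91. At 24 h Pltp came next after Scd2 (105.6 ± 41.05 FPKM, n = 4), overlapping Abca1 behind it, and Nr1h3 was last at 13.6 ± 6.07. At 8 weeks Apoe averaged 3316.1 ± 1291.6 FPKM (n = 4), while Scd2 (86.0 ± 19.7) and Pltp (82.0 ± 13.3) overlapped. Mylip and Abcg1 closed the order there at 14.6 ± 1.22 and 14.2 ± 2.05 FPKM, and they overlapped too. The fewest reads behind any value of the 10 genes were 270, for Nr1h3 in before replicate 4.

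FPKM groups without overlap give a further count that uses no TMM scaling. At 24 h, 4 of the 10 genes were higher in every library and 0 lower, where 9.75% and 8.01% of all genes were. At 8 weeks 5 were higher and 3 lower in every library, against 18.1% and 26.5% of all genes. The 3 were Nr1h2, Abca1 and Scd2, of which edgeR called only Scd2, and the shift of FPKM as a whole touches this count. Between 24 h and 8 weeks 1 gene was higher and 5 were lower in every library (Nr1h2, Abca1, Mylip, Lpcat3 and Scd2), against 9.92% and 13.3% of all genes.

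The other genes of the pathway were read as 6 lists with 69 distinct genes, of which 63 were tested. The lists share some genes, so counts given list by list are not independent. At 24 h, 7 of the 63 rose and 4 fell, close to the 12.6% and 6.63% of all genes. At 8 weeks 24 rose and 9 fell, the first above the 20.5% of all genes and the second slightly below the 16.4%. Without 24 h replicate 3, 8 rose and 6 fell at 24 h. Of all 14078 genes 2341 rose and 1657 fell in that fit, against 1774 and 934 with the replicate kept. The median log2 fold change of the 63 was −0.13 at 24 h and 0.26 at 8 weeks, against 0.03 over all genes at both times.

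**Figure D5:**
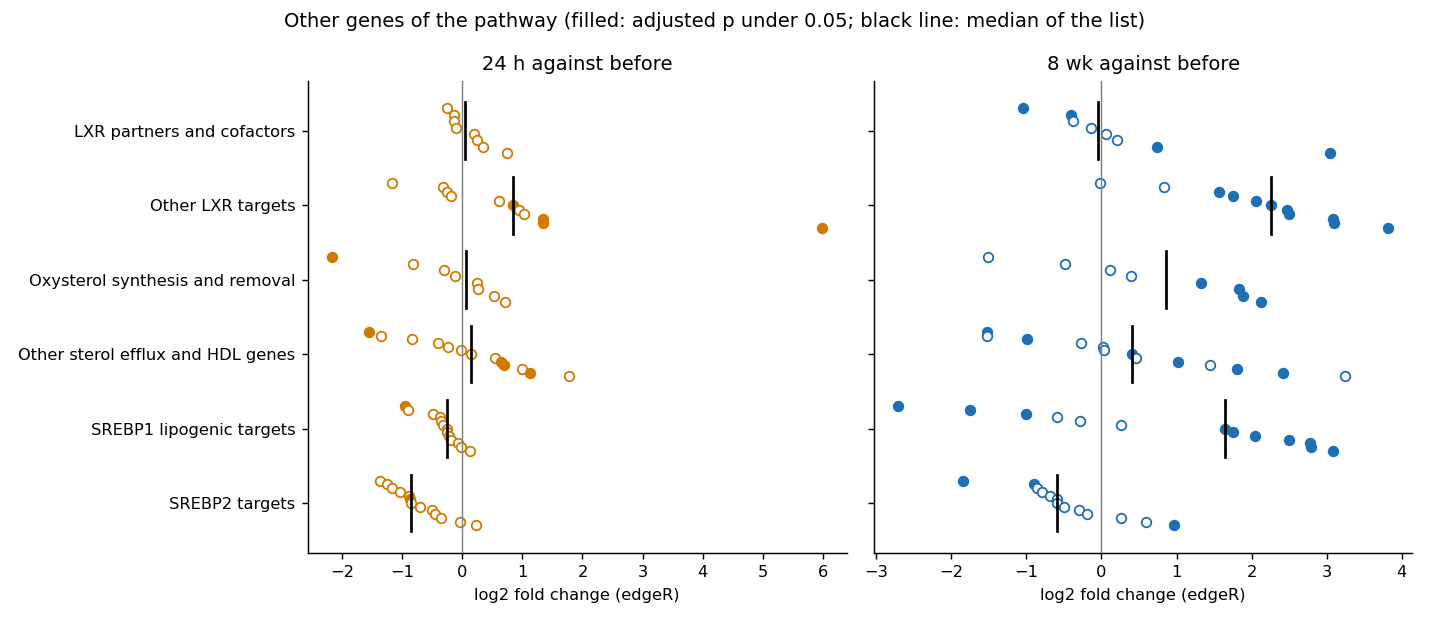
Log2 fold changes of the other pathway genes by list, 24 h against before on the left and 8 weeks against before on the right, with 1 point per gene, filled where the adjusted p is under 0.05, and a black line at the median of the list. The other LXR targets have a median of 0.85 at 24 h and 2.26 at 8 weeks, and the lipogenic genes −0.26 and 1.65.

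Of 15 other known LXR targets 11 were tested, and 4 of them rose at 24 h and 9 at 8 weeks, with 0 lower, where 12.6% and 20.5% of all genes rose. Genes counted both here and with the lipogenic genes below, such as Mlxipl, enter both counts. Smpdl3a, an extracellular phosphodiesterase, rose from 19.1 ± 2.0 (n = 5) to 47.5 ± 6.9 at 24 h and 83.7 ± 9.9 FPKM at 8 weeks (n = 4 each), by 1.34 log2 (SE 0.15) and 2.26 (SE 0.15, edgeR adjusted p = 3.1e-06). Mertk, a receptor for the uptake of dying cells, rose by 1.34 (SE 0.21) and 1.56 (SE 0.21) log2. Cd5l, a macrophage protein, rose by 5.99 (SE 1.035) at 24 h and by 2.47 (SE 0.91, adjusted p = 0.048) at 8 weeks, and from 24 h to 8 weeks it fell (log2 −3.52, SE 1.01, adjusted p = 0.029). The other gene that rose at 24 h, named after its values were seen, was Arl4c, a small GTPase (0.85, SE 0.19), which stood at −0.03 at 8 weeks. Lpl, lipoprotein lipase, rose at 8 weeks by 3.10 (SE 0.47). Cd5l and Mertk are macrophage genes as well as LXR targets, and Lpl is also a fat-cell gene; the fat-cell markers summed to 187.6 to 1949.2 FPKM before and 8088.8 to 17472.4 at 8 weeks, with none of 8 at 0, and their part was not tested.

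Of 8 partners and cofactors, 0 were called at 24 h by edgeR (1 had an unadjusted p under 0.05), and at 8 weeks 2 rose and 2 fell, near the 20.5% and 16.4% of all genes. Rxra, a retinoid X receptor that pairs with both LXRs, rose from 14.5 ± 1.5 to 21.6 ± 9.8 FPKM at 8 weeks (log2 0.74, SE 0.27, edgeR adjusted p = 0.049), and Rxrg, a low-level member of the same family, rose by 3.05 (SE 0.77). Ncor1, a corepressor gene, fell by 0.41 (SE 0.14) log2.

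Of 8 genes of oxysterol synthesis and removal, 1 fell at 24 h and 4 rose at 8 weeks, where 6.63% of all genes fell and 20.5% rose. The genes that rose at 8 weeks were Cyp27a1 and Ch25h, which hydroxylate the cholesterol side chain, and Cyp7b1 and Hsd3b7, which convert oxysterols onward. Cyp27a1 rose from 7.316 ± 2.403 to 28.05 ± 22.45 FPKM (log2 2.13, SE 0.44, edgeR adjusted p = 0.0024), Cyp7b1 by 1.83 (SE 0.30), Hsd3b7 by 1.32 (SE 0.29) and Ch25h by 1.89 (SE 0.53). Both makers and removers of oxysterols were thus among those higher.

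Of 13 tested genes of other sterol efflux and lipoprotein handling, 3 rose and 1 fell at 24 h, where 12.6% of all genes rose and 6.63% fell. At 8 weeks 4 rose and 2 fell, against 20.5% and 16.4% of all genes. Npc2 and Npc1, which move cholesterol out of lysosomes, rose at both times, Npc2 by 1.13 (SE 0.16) and 1.81 (SE 0.16) log2 and Npc1 by 0.69 (SE 0.20) and 1.01 (SE 0.20). Abcg4, a close relative of Abcg1, fell from 13 ± 2.2 to 4.37 ± 2.3 and 4.13 ± 1.3 FPKM (log2 −1.55, SE 0.33, and −1.53, SE 0.33, edgeR adjusted p = 0.0064 and 0.0034). Cav1, the caveola coat gene, rose at 8 weeks by 2.41 (SE 0.52). The others called, named after their values were seen, were Abca5, a lipid transporter that rose at both times by 0.64 (SE 0.15) and 0.41 (SE 0.15), and Nceh1, a cholesteryl ester hydrolase that fell at 8 weeks by 0.99 (SE 0.24).

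Of 13 lipogenic genes that SREBP-1 drives, 0 rose and 1 fell at 24 h, where 12.6% of all genes rose and 6.63% fell. At 8 weeks 7 rose and 3 fell, against 20.5% and 16.4% of all genes. The fat-cell markers moved with the genes that rose: their median log2 fold change at 8 weeks was 3.13, with 4 of 8 higher, against a median of 1.65 for the lipogenic list, and their part in these rises was not tested. Elovl6, which lengthens fatty acids, rose from 12.96 ± 6.755 to 81.2 ± 30.5 FPKM (log2 2.79, SE 0.49, edgeR adjusted p = 0.00084), with Mlxipl (1.75, SE 0.41) and Acacb (1.65, SE 0.40). Elovl5, an elongase of polyunsaturated chains, fell at both times, by 0.96 (SE 0.24) and 1.00 (SE 0.24). Scd1, Fads1 and Fads2, desaturases named after their values were seen, stood beside Scd2 as follows: Scd1 rose at 8 weeks by 3.08 (SE 0.98, adjusted p = 0.026), while Fads1 fell by 1.75 (SE 0.55) and Fads2 by 2.71 (SE 0.74). Scd1 and Scd2 are close paralogs that may share reads, and Scd1 is abundant in fat cells. It averaged 338.5 ± 270.3 FPKM before (n = 5) and 2583.1 ± 1021.4 at 8 weeks (n = 4).

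Of 13 tested targets of SREBP-2, the factor that is active when sterol is low and whose targets make and import cholesterol, 0 rose and 1 fell at 24 h. Of all genes 12.6% rose and 6.63% fell then. At 8 weeks 1 rose and 2 fell, against 20.5% and 16.4% of all genes, the second near the share in this list. In either direction 36.9% of all genes were called at 8 weeks, a larger share than in this list. Lss fell at 24 h by 0.88 (SE 0.26, edgeR adjusted p = 0.032), and Insig1 rose at 8 weeks by 0.96 (SE 0.31, adjusted p = 0.029), while Dhcr7, named after its values were seen, fell by 1.84 (SE 0.68, adjusted p = 0.048). Hmgcs1 had log2 fold changes of −1.17 (SE 0.42, adjusted p = 0.069) and −0.69 (SE 0.41, adjusted p = 0.21). The median of the list was −0.85 at 24 h and −0.59 at 8 weeks, both below the 0.03 over all genes, with few members called.

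The genes closest in profile were found as the smallest root mean square difference in log2 CPM, relative to the before mean, over the 13 libraries and 12071 other genes. Nearest to Abcg1 were Lrrc25 (0.30), Fcgr1 (0.32) and Fcgr4 (0.34). Fcgr1 and Fcgr4 are antibody receptors of myeloid cells. Fcgr1 is also 1 of the 12 macrophage markers, and it averaged 2.07, 17.01 and 7.2 FPKM before, at 24 h and at 8 weeks. Nearest to Mylip were Ncapg2 (0.20), Entpd1 (0.20) and Fam102b (0.22), and Entpd1, an enzyme that clears extracellular ATP, averaged 10.1, 29.6 and 20.3 FPKM.

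Nearest to Abca1 were Rdx (0.23), Lrp6 (0.25) and Psme4 (0.26), none of them nearest to Abcg1. Nearest to Nr1h3 were Phlda3 (0.25), Il3ra (0.30) and Stom (0.30), and Phlda3 averaged 13.02, 19.41 and 43.7 FPKM in the 3 groups. Nearest to Srebf1 were Ocel1 (0.35), Madd (0.37) and Tex2 (0.38), at larger distances than the nearest genes of Abca1, Mylip and Nr1h3. These lists describe likeness over these libraries and carry no test.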

How the data were processed

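Messenger RNA of 13 adrenal libraries was sequenced after stranded mRNA library preparation, per the labels' protocols. The submitters' processing notes name bcl2fastq 2.17, TopHat2 2.0.14 and the builds mm10 and GRCm38; the tool that counted reads is not named in the sources used here. For every RefSeq transcript in each library the deposited tables hold an expected count (an estimate of reads, often fractional) together with FPKM, per the file headers. A further deposited table holds, per the file headers, log2 FPKM and, for 8 weeks against before, the log2 ratio with its p-value and q-value. Of the values in a library, 43.3% to 46.4% of counts were whole to within 1e-06.

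Expected counts of the 18738 transcripts listed in all 3 tables were summed per gene, rounded and tested in 1 fit of all libraries with edgeR 4.0.16 (R 4.3.3), by its quasi-likelihood test with TMM scaling, filterByExpr, no block and Benjamini-Hochberg adjustment over 14078 genes at a threshold of 0.05. All adjusted p for genes are from this test unless named otherwise. SE is the log2 fold change divided by the root of the F statistic. Ratios and transcript shares used scipy 1.17.1 exact permutation tests. Alternatives used limma 3.58.1 and DESeq2 1.42.0. The tests were checked on simulated counts. A list symbol not used in the tables was matched by a RefSeq synonym (1 gene, Adgre1 as Emr1). Promoter windows are RefSeq's.

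Named were the 10 genes, the up to 4 genes of lowest p per pathway list, and the 3 genes nearest in profile to each of 5 members, among genes of at least 5 CPM. Values of some single pathway genes are not reported here. The members and lists were chosen with earlier results of these data known. Read counts were 17331673 to 27309429 per library.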

Additional observations from a re-analysis of the deposited data

Results flagged for a closer look

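Before TAM, Scd2 had 1 library far from the others, replicate 1 at 218.2 FPKM, with the next at 337.7. The same library had the lowest fat-cell markers before TAM, summing to 187.6 FPKM, and their part in its Scd2 level was not tested. At 8 weeks Mylip had 1 such library, replicate 1 at 16.43 FPKM, with the next at 14.11. Chance sets apart about 1 in 20 groups by this criterion. It was applied in every group to each of the 10 genes and to the Nr1h3 to Nr1h2 and Abcg1 to Abca1 ratios. A few such libraries can therefore come from chance. The effects at 24 h and at 8 weeks differed for 4 of the 10 genes in the test of 8 weeks against 24 h (edgeR), where 20.8% of all genes were called. They were Nr1h3 (log2 0.98, adjusted p = 0.033), Abca1 (−0.89, adjusted p = 0.014), Mylip (−0.41, adjusted p = 0.044) and Scd2 (−1.76, adjusted p = 0.0073). With 1 library left out, the call was lost for Nr1h3 in 8 of 13 fits and for Mylip in 7 of 13. Abca1 and Scd2 kept theirs, with a highest edgeR adjusted p of 0.040 and 0.024.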

How the results depend on the processing

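The counts of genes called depended on the fit more than the 5 rises at 8 weeks did: those 5 calls were made with each single library left out. Replicate numbers do not come from a stated pairing: deviations of same-numbered libraries correlated at −0.173 to 0.33, and 2 of 12 numbered pairs correlated best with their own number. With the replicate block 3 of the 10 genes were higher at 24 h, with Nr1h3 (adjusted p = 0.11) and Apoe (adjusted p = 0.055) no longer called, and 0 were higher from 24 h to 8 weeks; of the pathway genes 2 were lower at 24 h, 15 higher and 5 lower at 8 weeks, and 8 higher and 2 lower from 24 h to 8 weeks. Over all genes the block gave 880 higher and 432 lower at 24 h, against 1774 and 934 without it. At 8 weeks it gave 2183 and 1665, against 2882 and 2311. From 24 h to 8 weeks it gave 934 and 727, against 1428 and 1495. DESeq2 called 10 pathway genes lower at 24 h, and 1336 of 13842 over all genes. Sample quality weights in limma voom called 9 pathway genes lower at 24 h, 3 of the 10 genes and 16 pathway genes lower at 8 weeks, and 5 of the 10 lower from 24 h to 8 weeks. Of all 14078 genes these weights called 2529 lower at 24 h, 3757 at 8 weeks and 2041 from 24 h to 8 weeks. Without a scaling factor 4 of the 10 were lower at 8 weeks and 6 lower from 24 h to 8 weeks; the median of all genes then moved to −0.10 and −0.12, and over all genes 2424 rose and 3054 fell at 8 weeks, against 2882 and 2311 with scaling. With FPKM plus 0.1 or plus 1 in limma 4 of the 10 were lower at 8 weeks, 6 lower from 24 h to 8 weeks, and 3 pathway genes lower from 24 h to 8 weeks. Over all genes 3182 and 3209 were then lower at 8 weeks, and 2060 and 2048 from 24 h to 8 weeks. In a fit of the 2 groups alone 2 of the 10 were lower at 8 weeks, and from 24 h to 8 weeks 0 of the 10 were higher, with 7 pathway genes higher and 1 lower; with all transcripts of the 2 groups these were 3, 0, 7 and 1, and 14 pathway genes were lower at 8 weeks. Over all genes the fit of the 2 groups alone called 3602 lower at 8 weeks, and 460 higher and 513 lower from 24 h to 8 weeks. With all transcripts of the 2 groups 3851 were lower at 8 weeks. Without 24 h replicates 3 and 4 together, chosen after seeing the data, 2 pathway genes were lower at 24 h, 2 of the 10 lower at 8 weeks, and 0 of the 10 and 10 pathway genes higher from 24 h to 8 weeks. Over all genes 1180 were then lower at 24 h, 3715 lower at 8 weeks and 1198 higher from 24 h to 8 weeks.

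With 1 library left out at a time, 4 to 5 of the 10 genes were higher at 24 h, 1 to 2 lower at 8 weeks, and 0 to 1 higher and 2 to 6 lower from 24 h to 8 weeks. Pathway genes lower were 2 to 7 at 24 h and 5 to 12 at 8 weeks, and from 24 h to 8 weeks 10 to 18 were higher and 1 to 9 lower. The log2 Nr1h3 to Nr1h2 ratio differed by 2.12 to 2.34 at 8 weeks and by 1.34 to 1.87 from 24 h to 8 weeks, and the log2 Abcg1 to Abca1 ratio by 2.13 to 2.51 at 24 h, 2.38 to 2.69 at 8 weeks and −0.0027 to 0.38 between the later times. The share of the leading Nr1h3 model differed by −2.77 to 1.83 percentage points at 8 weeks. Uncalled values that changed sign were Nr1h2 at 24 h (−0.033 to 0.29), Srebf1 at 24 h (−0.13 to 0.44; −0.10 and −0.096 in limma on FPKM), Scd2 at 24 h (−0.36 to 0.17; 0.28 with quality weights, 0.49 without replicates 3 and 4), and Srebf1 at 8 weeks (−0.036 with quality weights) and from 24 h to 8 weeks (−0.20 to 0.41; −0.45 with quality weights, −0.39 without replicates 3 and 4). The cause of these shifts was not tested.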
